A study of Mus musculus with 2 samples.

Results

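Pericytes of the embryonic mouse brain were taken from single cell RNA sequencing (scRNA-seq) libraries by 5 marker genes, and 88 of 12936 kept cell barcodes met the rule, 43 of 5453 in replicate 1 and 45 of 7483 in replicate 3. The rule counted unique molecular identifiers (UMIs), the tags that let each captured RNA molecule be counted once. A barcode was kept with 1500 to 60000 UMIs and under 10% mitochondrial UMIs. It was taken as a pericyte when *Rgs5*, *Pdgfrb*, *Kcnj8*, *Abcc9* and *Vtn* together had at least 8 UMIs and more than the endothelial genes *Cldn5*, *Pecam1*, *Flt1*, *Kdr* and *Cdh5* together. The fibroblast genes *Dcn*, *Lum* and *Foxc1* together, and the neuron genes *Neurod2* and *Neurod6* together, could have at most 3 UMIs each. Both samples belonged to 1 group, wild type (WT) control embryos of the line that the series text spells EomesMllt3 and the sample titles EoMltt3, at embryonic day 14.5 (E14.5), on the C57BL/6J strain by the study's methods. The labels name the tissue as brain hemispheres and the series text names the dorsal telencephalon, which was dissociated with papain and captured in droplets. The 2 samples are called replicates 1 and 3 after their labels, and whether each came from 1 embryo or from several was not given in the sources used here. The study used such libraries to ask which signals of interneurons meet receptors on progenitors. All comparisons below are between cell classes within these libraries.

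Pericytes are the mural cells of capillaries. They lie within the basement membrane of the vessel beside the endothelial cells, are recruited by PDGF-B from the endothelium through the receptor PDGFR-beta, and in the forebrain arise largely from neural crest. They are known for a part in forming the blood-brain barrier and in setting capillary tone, and they share genes with the smooth muscle cells of larger vessels.

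Pericytes made up 0.789% of the kept barcodes in replicate 1 (95% Wilson interval from 0.586 to 1.06) and 0.601% in replicate 3 (0.450 to 0.804), a mean of 0.695% ± 0.132 (SD, n = 2). The intervals overlapped and cover counting error only. The other classes of the same libraries were set by their own genes above, with at least 8 UMIs for endothelial cells and meningeal fibroblasts. Endothelial cells had the fibroblast and neuron limits of the pericyte rule, and more endothelial than pericyte marker UMIs. Meningeal fibroblasts needed more fibroblast UMIs than pericyte marker or endothelial UMIs, and at most 3 neuron UMIs. No further limit was set on their pericyte marker UMIs, which had medians of 8 and 7 and reached 44 and 64. Endothelial cells were 25 and 53 barcodes, meningeal fibroblasts 46 and 132, and the remaining kept barcodes 5339 and 7253. The median pericyte had 11252 UMIs from 3867 genes in replicate 1 and 12829 UMIs from 4185 genes in replicate 3, and the pericytes held 506818 and 630712 UMIs in all. Endothelial cells had medians of 16459 and 10802 UMIs, and meningeal fibroblasts of 14707.5 and 11825.5. The libraries held 64182006 and 93295807 UMIs. Between the libraries 23 barcodes were shared, 0 of them among the pericytes.

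The marker genes were not near the limit of the rule in most cells. Their summed UMIs ran from 15 to 190 with a median of 70 in replicate 1 and from 19 to 147 with a median of 72 in replicate 3, and no pericyte held 8 to 14. The 5 markers were all detected in 38 of 43 and 42 of 45 cells. *Rgs5*, a regulator of G protein signalling, had a median of 38 and 43 UMIs per cell and was found in every pericyte. *Pdgfrb*, the receptor for PDGF-B, had 6 and 4, and *Vtn*, which encodes the secreted protein vitronectin, had 10 and 11. *Kcnj8*, the pore subunit Kir6.1 of a vascular potassium channel closed by ATP, had 5 and 7, and *Abcc9*, the regulatory subunit SUR2 of the same channel, had 12 and 9. These genes chose the cells, so that their levels are a description. The barcodes just below the limit, with 5 to 7 marker UMIs, were 5 in replicate 1 and 2 in replicate 3, and held 0 UMIs of *Kcnj8*, *Abcc9*, *Notch3*, *Higd1b* and *Ndufa4l2*. The pericytes with 15 to 30 marker UMIs, 7 and 2 cells, held *Kcnj8* at 178 and 140.1 CPM (UMIs of a gene in each 1000000 UMIs of the summed cells) and *Notch3* at 267 and 140.1 CPM. The endothelial genes of the rule summed to 0 in 25 and 21 pericytes and to more than 1 in 8 and 11.

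**Figure D1:**
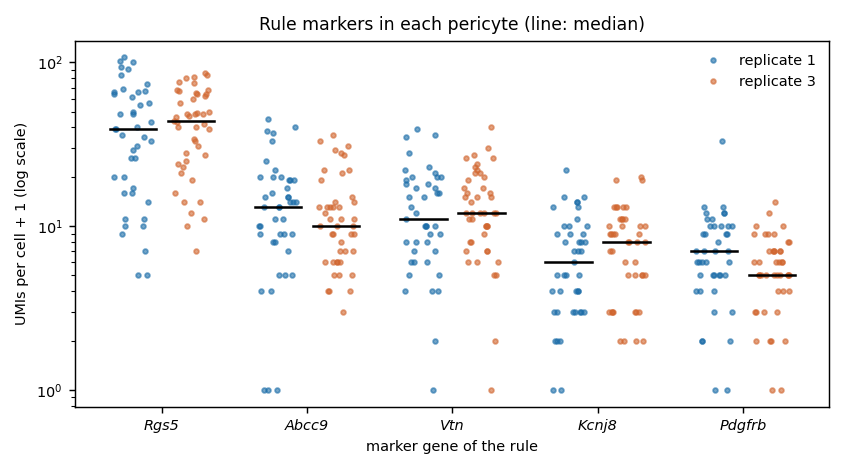
UMIs of the 5 marker genes of the rule in each of the 88 pericytes, plotted as UMIs per cell + 1 on a log scale, with 1 dot per cell and a line at the median of each replicate. The medians of the replicates were 38 and 43 UMIs for *Rgs5* and from 4 to 7 UMIs for *Kcnj8* and *Pdgfrb*.

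Libraries hold RNA of other cells, and the marker lists of those cells were summed in the pericytes. Endothelial markers other than those of the rule summed to 643 and 553 CPM in the pericytes of replicates 1 and 3, against 6228 and 5546 CPM in endothelial cells. Meningeal markers summed to 1279 and 1092 CPM against 6726 and 5230 CPM in meningeal fibroblasts. Radial glia markers summed to 2066 and 2221 CPM in pericytes, above the 1587 and 1794 CPM of the remaining barcodes. The same markers summed to 2208 and 2544 CPM in meningeal fibroblasts and to 1499 and 1473 CPM in endothelial cells. Of the 7 tested, *Vim* and *Mfge8* were higher than in the remaining barcodes (1.33 ± 0.20 and 3.42 ± 0.20 on the log2 scale, adjusted p = 0.000512 and 8.24e-07) and *Fabp7*, *Hes5*, *Pax6*, *Slc1a3* and *Sox2* were lower, by the test described below. The calls of *Slc1a3* and *Sox2* were lost without pericyte replicate 3 (adjusted p = 0.146 and 0.109) and that of *Fabp7* in all 4 fits with 1 sum left out. *Sox2* had UMIs in 4 and 1 pericytes. Neuron markers summed to 233 and 219 CPM. Red blood cell markers summed to 132 and 393 CPM, interneuron markers to 61.2 and 4.76 CPM, and microglia markers to 15.8 and 19.03 CPM. Intermediate progenitor markers summed to 71.0 and 55.5 CPM, choroid plexus markers to 0 and 25.4 CPM, with 0 and 1264 CPM in endothelial cells, and Cajal-Retzius markers to 5.92 and 3.17 CPM. The part of such RNA in the results below was not tested.

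The channel subunits *Kcnj8* and *Abcc9* are neighbours in the genome. In the RefSeq annotation of GRCm38.p6, the assembly of mm10, *Kcnj8* spans chr6:142564837-142571614 and *Abcc9* chr6:142587862-142702766, both on the minus strand with 16247 bases between them. Both were detected in 40 of 43 and 45 of 45 pericytes, in 0 of 25 and 0 of 53 endothelial cells and in 0 of 46 and 1 of 132 meningeal fibroblasts. These shares are a description, since both genes helped to set the classes. A second pair of subunits lies side by side in the same way. *Gucy1b1* (chr3:82032004-82074711) and *Gucy1a1* (chr3:82092427-82145946), both on the minus strand with 17715 bases between them, encode the beta and alpha subunits of soluble guanylate cyclase, the receptor for nitric oxide, and were not part of the rule. Both were detected in 42 of 43 and 44 of 45 pericytes, in 0 of 25 and 0 of 53 endothelial cells, which allows shares of up to 12% and 5.66%, and in 0 of 46 (up to 6.52%) and 3 of 132 meningeal fibroblasts. The 250 bases before a transcript start of each gene are printed because the members of each pair were found in the same cells. They are from RefSeq on GRCm38.p6, read 5′ to 3′ on the minus strand, and the capitals mark the core TGGGAA, the sequence bound by RBPJ, the DNA-binding partner of Notch receptors. The windows are chr6:142571615-142571864 for *Kcnj8*, chr6:142702275-142702524 for *Abcc9*, chr3:82145651-82145900 for *Gucy1a1*, at the outermost of its 2 listed starts, and chr3:82074712-82074961 for *Gucy1b1*. The windows of *Kcnj8* and *Gucy1b1* lie directly before the spans given above. Those of *Abcc9* and *Gucy1a1* lie inside the spans, near their 5′ ends.
Kcnj8: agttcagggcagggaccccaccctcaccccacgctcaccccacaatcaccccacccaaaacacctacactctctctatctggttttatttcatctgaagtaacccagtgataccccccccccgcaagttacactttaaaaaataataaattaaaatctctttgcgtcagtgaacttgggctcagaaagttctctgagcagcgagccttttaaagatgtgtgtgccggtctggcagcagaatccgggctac
Abcc9: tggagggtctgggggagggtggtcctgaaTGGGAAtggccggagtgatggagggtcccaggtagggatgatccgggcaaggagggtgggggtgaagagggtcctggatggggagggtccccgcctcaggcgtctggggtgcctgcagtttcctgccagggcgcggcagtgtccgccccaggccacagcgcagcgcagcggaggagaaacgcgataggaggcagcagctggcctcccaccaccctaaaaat
Gucy1a1: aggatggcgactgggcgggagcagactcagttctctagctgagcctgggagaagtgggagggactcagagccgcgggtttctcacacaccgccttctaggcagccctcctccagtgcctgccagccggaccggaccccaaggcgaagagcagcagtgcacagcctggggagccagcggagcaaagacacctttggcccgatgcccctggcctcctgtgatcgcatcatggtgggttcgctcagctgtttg
Gucy1b1: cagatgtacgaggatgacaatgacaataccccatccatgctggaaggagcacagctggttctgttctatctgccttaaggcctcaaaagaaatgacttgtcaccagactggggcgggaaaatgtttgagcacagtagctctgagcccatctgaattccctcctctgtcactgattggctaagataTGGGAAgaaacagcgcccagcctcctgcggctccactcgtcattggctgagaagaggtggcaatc
The core was searched on both strands. It stood once in the *Abcc9* window, with its first base at -221 from that transcript start, and once in the *Gucy1b1* window, at -65. It was not in the other windows, and 21.59% of 32851 promoter windows of the same length held it. The core ACGTG of hypoxia response elements, held by 16.57% of the windows, and the TATA box letters TATAAA, held by 12.37%, were in none of these 4 windows. Such matches are a description of the letters and show no binding.

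Around *Kcnj8* and *Abcc9*, the coding genes *Recql*, *Golt1b*, *Ldhb*, *Cmas* and *St8sia1* had UMIs in all 8 sums of class and replicate. *Ldhb*, a lactate dehydrogenase subunit, was at 96.7 and 116 CPM in pericytes and higher than in endothelial cells (log2 difference 1.35, adjusted p = 0.0147), lower than in the remaining barcodes (-1.08, adjusted p = 0.00654), and with an adjusted p of 0.456 against meningeal fibroblasts. *Golt1b*, at 27.6 and 41.2 CPM, and *Recql*, at 15.8 and 28.5 CPM, did not pass against endothelial cells (adjusted p = 0.835 and 0.189). *Golt1b* was higher than in the remaining barcodes (1.03, adjusted p = 0.0114), and *Cmas*, at 59.2 and 60.2 CPM, was higher than in meningeal fibroblasts (0.95, adjusted p = 0.0171). Each of these calls was lost in 1 fit with 1 sum left out, without pericyte replicate 3 for *Ldhb* against endothelial cells and for *Golt1b* (adjusted p = 0.105 and 0.216) and without pericyte replicate 1 for *Ldhb* against the remaining barcodes (adjusted p = 0.0558), except that of *Cmas*, which was lost in all 4 (highest adjusted p = 0.119). Differences here and below are from the quasi-likelihood test of edgeR on the UMIs summed per class and replicate (8 sums). Their p-values are adjusted by Benjamini-Hochberg over 10473 genes, and the 15 genes of the rules were left out of the tests.

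Against endothelial cells, 2137 genes passed an adjusted p of 0.05 (20.4% of those tested), of which 1058 were higher in pericytes (10.1%) and 1079 lower (10.3%). Against meningeal fibroblasts 1606 passed (15.3%), 797 higher (7.61%) and 809 lower (7.72%). Against the remaining barcodes 4710 passed (45.0%), 2330 higher (22.2%) and 2380 lower (22.7%). These shares of all genes tested are the background for every count of listed genes below. The cells were chosen on genes of the same libraries, so that these counts describe the chosen classes and are no independent evidence that they are distinct types. The 3 comparisons share the pericyte sums. The replicates are separate samples by their labels, and p-values measure the spread between sums of these 2 libraries. With 1 of the sums left out, the counts were from 1390 to 1651 against endothelial cells and from 870 to 1087 against meningeal fibroblasts.

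The other genes known from pericytes were higher in these cells. Of 25 listed genes 24 had enough UMIs to be tested, and 22 were higher and 0 lower than in endothelial cells, 20 higher and 2 lower than in meningeal fibroblasts, and 23 higher and 0 lower than in the remaining barcodes. The list had a median log2 difference of 7.71 from endothelial cells (5.46 with genes at 0 set to their bound), against 0.014 over all genes tested. From meningeal fibroblasts it was 3.64 against -0.005, and from the remaining barcodes 6.08 against -0.048. *Nes*, which encodes the filament nestin and is shared with radial glia, was at 98.7 and 105 CPM and passed in none of the comparisons. *Slc6a20a*, a proline transporter, and *Postn*, a matrix protein, were lower than in meningeal fibroblasts. *Postn* was at 132 and 41.2 CPM in pericytes and 301 and 282 CPM in meningeal fibroblasts, and its call was lost when either meningeal sum was left out (highest adjusted p = 0.0656).

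The list held genes of mitochondrial proteins. *Ndufa4l2*, a relative of the respiratory chain gene *Ndufa4*, was at 722 and 734 CPM in the pericytes of replicates 1 and 3. It had 0 UMIs in endothelial cells, 10.9 and 25.7 CPM in meningeal fibroblasts and 1.66 and 1.20 CPM in the remaining barcodes. The pericytes stood apart from every other class in both replicates, at least 310.4-fold above endothelial cells (floor of 3 UMIs over both sums, adjusted p = 1.01e-05) and 5.17 ± 0.32 (SE) above meningeal fibroblasts on the log2 scale (adjusted p = 2.12e-05). In cells thinned to 3000 UMIs it had a UMI in 70.7% and 82.2% of pericytes, 0 of 24 and 0 of 44 endothelial cells (which allows shares of up to 12.5% and 6.82%) and 0.119% and 0.365% of the remaining barcodes. *Higd1b*, a relative of *Higd1a*, was at 659 and 262 CPM with 0 UMIs in endothelial cells and 1.37 and 2.18 CPM in meningeal fibroblasts. Its replicates differed, and both lay far above the other classes, at least 187-fold above endothelial cells (adjusted p = 0.000243) and 7.81 ± 0.77 above meningeal fibroblasts (adjusted p = 0.000206). *Cox4i2*, an isoform of subunit 4 of cytochrome c oxidase, was at 197 and 282 CPM against 0 and 2.61 CPM in endothelial cells and 1.37 and 2.18 CPM in meningeal fibroblasts. Its 2 UMIs in endothelial cells gave a ratio of 156 with an exact counting interval from 42.8 to 1296 (adjusted p = 1.22e-05), and it was 6.90 ± 0.41 above meningeal fibroblasts (adjusted p = 1.45e-05).

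The widely used relatives of these genes had other patterns. *Higd1a* was at 94.7 and 80.9 CPM in pericytes and 80.8 and 82.5 CPM in meningeal fibroblasts (log2 difference 0.11 ± 0.35, adjusted p = 0.885). *Cox4i1* was at 1480 and 1611 CPM against 1212 and 1230.2 CPM in endothelial cells (0.29 ± 0.16, adjusted p = 0.243). *Ndufa4* was at 308 and 322 CPM, below the 680.3 and 443 CPM of endothelial cells and the 714 and 574 CPM of meningeal fibroblasts. Its differences of -0.88 ± 0.23 and -1.01 ± 0.23 passed (adjusted p = 0.0239 and 0.0152), and each was lost in 3 of the 4 fits with 1 sum left out (highest adjusted p = 0.147 and 0.0989).

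Some other pairs of related genes were also split between pericytes and endothelial cells. The listed pair members *Angpt2*, *Gja4* and *Notch1* did not pass there. *Rgs4*, a regulator of G protein signalling like the marker *Rgs5*, was at 243 and 217 CPM in pericytes and 0 in endothelial cells, at least 97.4-fold higher (adjusted p = 0.000233). *Rgs2* was at 3.95 and 6.34 CPM in pericytes against 48.7 and 65.4 CPM in endothelial cells (-3.48 ± 0.51, adjusted p = 0.000954). Of 17 genes listed as members of such pairs, 8 were higher and 4 lower than in endothelial cells (2 to 5 lower with 1 sum left out) and 10 higher and 2 lower than in meningeal fibroblasts.

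**Figure D2:**
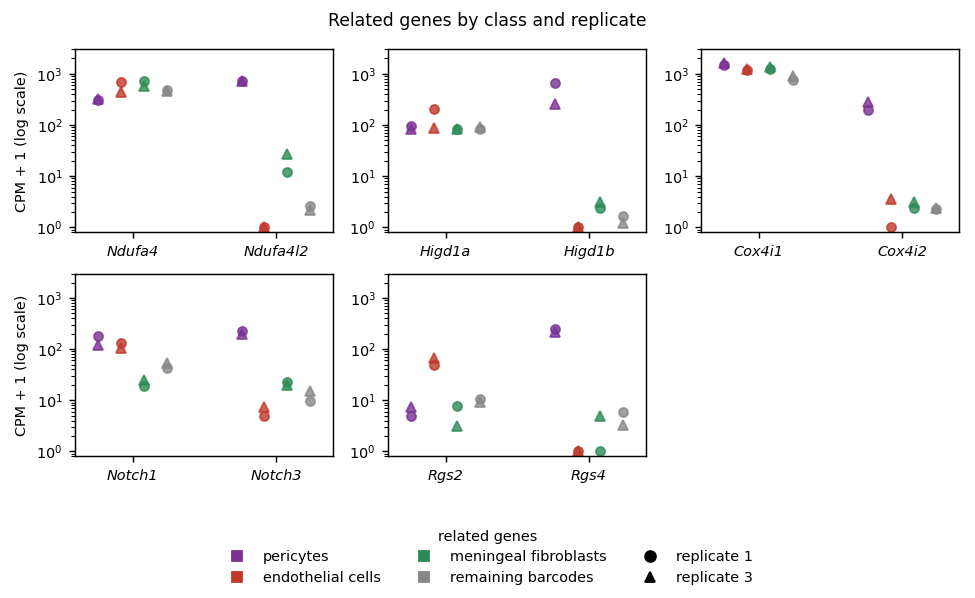
CPM + 1 on a log scale for 5 pairs of related genes in pericytes, endothelial cells, meningeal fibroblasts and the remaining barcodes, with a circle for replicate 1 and a triangle for replicate 3. *Ndufa4l2*, *Higd1b* and *Cox4i2* stood at 197 CPM or more in pericytes and at 25.7 CPM or less in the other classes, while *Cox4i1* lay from 769.6 to 1611 CPM in all 4.

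Genes of the cell surface and of signalling filled most of the rest of the list. *Cspg4*, which encodes the proteoglycan NG2, was at 164 and 111 CPM in pericytes with 0 UMIs in endothelial cells, at least 57.3-fold higher (adjusted p = 9.43e-05), and 4.72 ± 0.44 above meningeal fibroblasts (adjusted p = 0.000144). *Anpep*, which encodes the peptidase CD13, was at 53.3 and 44.4 CPM against 30.1 and 42.6 CPM in meningeal fibroblasts and did not pass there (adjusted p = 0.477). *Mcam*, the adhesion protein CD146, was at 256 and 203 CPM against 52.6 and 39.2 CPM in endothelial cells and 0 and 2.18 CPM in meningeal fibroblasts. It was higher than both (2.29 ± 0.30 and 7.13 ± 0.45, adjusted p = 0.000455 and 1.85e-05). *Cd248*, which encodes endosialin, was at 203 and 197 CPM with 0 UMIs in endothelial cells and 84.9 and 84.6 CPM in meningeal fibroblasts, at least 85.01-fold above the first and 1.25 ± 0.19 above the second (adjusted p = 1.01e-05 and 0.00243). *Ebf1*, a transcription factor, was at 2975 and 2285 CPM in pericytes and 1244 and 1114 CPM in endothelial cells, where it did not pass (1.11 ± 0.59, adjusted p = 0.237).

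**Figure D3:**
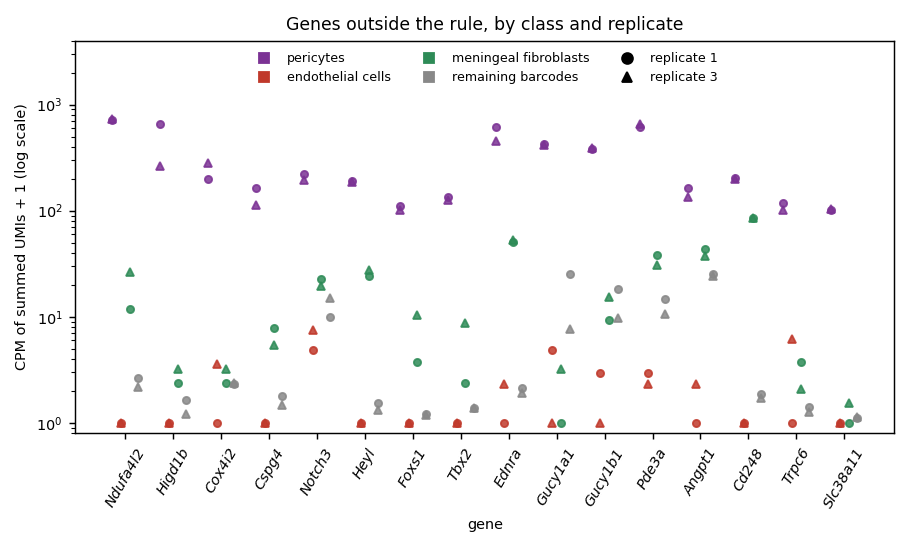
CPM + 1 on a log scale for 16 genes outside the rule in the 4 classes, coloured by class, with a circle for replicate 1 and a triangle for replicate 3. The pericyte values lay from 101 to 734 CPM and above every other class for each gene shown, and *Ndufa4l2*, *Higd1b*, *Cspg4*, *Heyl*, *Foxs1*, *Tbx2*, *Cd248* and *Slc38a11* had 0 UMIs in endothelial cells.

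Genes of the contractile apparatus were higher in pericytes, and a few cells carried part of them. Of 16 listed genes 12 were tested, with 10 higher and 1 lower than in endothelial cells, 8 higher and 1 lower than in meningeal fibroblasts, and 11 higher than in the remaining barcodes. The medians were 6.33 (4.11 with bounds), 2.68 and 6.19 on the log2 scale. *Cald1*, which encodes the actin-binding caldesmon, was at 3147 and 2591 CPM in pericytes against 162 and 131 CPM in endothelial cells and 565 and 527 CPM in meningeal fibroblasts. *Myl9*, a myosin light chain, was at 629 CPM in both replicates against 5.85 and 7.84 CPM in endothelial cells. *Mylk*, the kinase of that chain, was at 256 and 205 CPM against 21.4 and 14.4 CPM. All 3 were higher than in both classes with each sum left out in turn, with log2 differences from endothelial cells of 4.25 ± 0.21, 6.42 ± 0.33 and 3.67 ± 0.30. *Des*, which encodes the filament desmin, was at 55.2 and 108 CPM with 0 UMIs in endothelial cells (at least 35.9-fold, adjusted p = 0.000505).

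The smooth muscle genes *Acta2* and *Tagln* were spread unevenly over the cells. *Acta2*, smooth muscle actin, was at 253 and 525 CPM, and its UMIs lay in 2 of 43 and 9 of 45 cells. *Tagln*, transgelin, was at 134 and 365 CPM in 6 and 18 cells. In replicate 1, 2 cells with a sum of both of at least 10 UMIs held all 128 *Acta2* UMIs and 22 of the *Myh11* UMIs, and had 23 UMIs of *Rgs5* and 0 of *Kcnj8*, *Abcc9* and *Higd1b*. In replicate 3, 5 such cells held 326 *Acta2* UMIs, and had *Kcnj8* at 346 CPM and *Abcc9* at 420.1 CPM. The other 41 cells of replicate 1 held 0 UMIs of *Acta2*, and the other 40 of replicate 3 held 5, or 9.09 CPM. These other cells kept *Myl9* at 563 and 455 CPM and *Cald1* at 3101 and 2492 CPM. The rule had no limit on *Acta2* or *Tagln*, so that the 7 cells rich in them count as pericytes in the main results. Whether they are smooth muscle cells was not tested. Without the 7 cells, a choice made after seeing the data, 6 contractile genes were higher than in endothelial cells and 4 than in meningeal fibroblasts, and *Acta2*, *Myh11* and *Actg2* no longer had enough UMIs to be tested. *Tagln*, 2.46 ± 0.47 above meningeal fibroblasts in all cells (adjusted p = 0.00576, and 0.0814 without meningeal replicate 3), was then at -0.81 (adjusted p = 0.348).

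**Figure D4:**
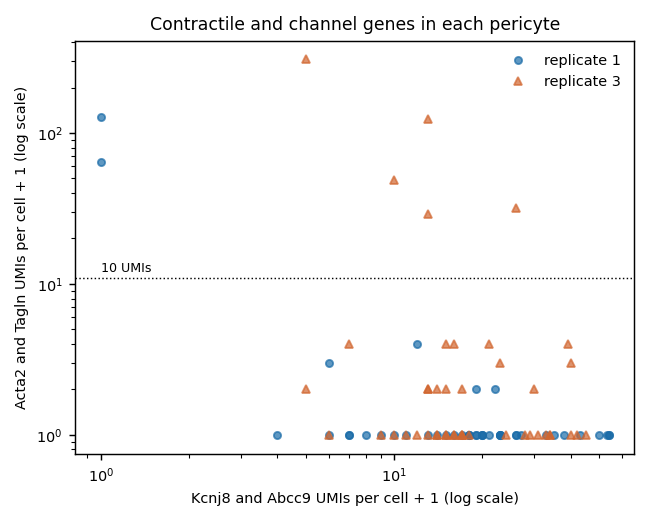
*Acta2* and *Tagln* UMIs per cell + 1 against *Kcnj8* and *Abcc9* UMIs per cell + 1 in the 88 pericytes, both on log scales, with circles for replicate 1, triangles for replicate 3 and a dotted line at 10 UMIs. The 7 cells above the line are 2 of replicate 1, with 0 UMIs of the channel genes, and 5 of replicate 3, which hold both gene pairs.

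PDGF and Notch signalling link pericytes to the endothelium. The marker *Pdgfrb* is the receptor of PDGF-B, and *Pdgfb* itself was at 9.87 and 9.51 CPM in pericytes against 162 and 82.4 CPM in endothelial cells (-3.66 ± 0.49, adjusted p = 0.000527). *Pdgfra*, the other receptor of the family, had 0 and 1.59 CPM in pericytes and 245 and 169 CPM in meningeal fibroblasts (-7.67 ± 0.68, adjusted p = 5.98e-05). *Pdgfa*, a ligand of that receptor, was at 37.5 and 49.2 CPM in pericytes and 9.75 and 2.61 CPM in endothelial cells (2.90 ± 0.67, adjusted p = 0.0124), a call lost without pericyte replicate 3 and without endothelial replicate 3 (highest adjusted p = 0.112). Of the 5 genes listed, 1 was higher and 2 lower than in endothelial cells, and 1 higher and 2 lower than in meningeal fibroblasts. The gene higher than in both was *Pdgfa*, at 2.78 above meningeal fibroblasts (adjusted p = 0.00819), also lost without pericyte replicate 3 (adjusted p = 0.0897).

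Of 20 Notch genes 17 were tested, and 4 were higher and 3 lower than in endothelial cells (3 to 5 lower with 1 sum left out), 6 higher and 2 lower than in meningeal fibroblasts (0 to 1 lower with 1 sum left out), and 9 higher and 3 lower than in the remaining barcodes. *Notch3*, the receptor known from mural cells, was at 221 and 195 CPM in pericytes against 3.90 and 6.54 CPM in endothelial cells and 21.9 and 18.6 CPM in meningeal fibroblasts. It was higher than in both (5.17 ± 0.40 and 3.41 ± 0.29, adjusted p = 2.27e-05 and 4.86e-05). *Notch1* was at 178 and 120.5 CPM and did not pass against endothelial cells (0.29 ± 0.25, adjusted p = 0.476), where it was at 131 and 105 CPM. The ligands divided by class. *Dll4* was at 1.97 and 3.17 CPM and *Jag2* at 0 and 1.59 CPM in pericytes, both lower than in endothelial cells (-4.10 ± 0.67 and -5.34 ± 0.91, adjusted p = 0.0017 and 0.00221). *Jag1* was at 69.1 and 87.2 CPM in pericytes and 64.3 and 51.0 CPM in endothelial cells, and did not pass (0.42 ± 0.27, adjusted p = 0.331). Among the target genes of the pathway, *Heyl* was at 191 and 187 CPM with 0 UMIs in endothelial cells and 23.3 and 26.8 CPM in meningeal fibroblasts. It was at least 80.5-fold above the first and 2.91 ± 0.28 above the second (adjusted p = 2.58e-05 and 0.000183). *Hey2* was at 49.3 and 39.6 CPM with 0 UMIs in endothelial cells (at least 18.7-fold, adjusted p = 0.000887). *Hes5*, the target used by radial glia, was at 1.97 and 3.17 CPM, below the remaining barcodes (-3.004 ± 0.54, adjusted p = 0.00143), and *Hes1*, at 146 and 151 CPM, was above them (2.47 ± 0.27, adjusted p = 5.77e-05).

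Genes of the TGF-beta and bone morphogenetic protein pathways were more often lower than higher against endothelial cells. Of 32 listed genes 30 were tested, with 4 higher and 13 lower than in endothelial cells (2 to 3 and 8 to 14 with 1 sum left out) and 4 higher and 9 lower than in meningeal fibroblasts (1 to 3 and 4 to 6). The medians were -1.10 and -0.31. Against endothelial cells 13.3% of the tested genes were higher, near the 10.1% of all genes, and 43.3% lower against 10.3%. For meningeal fibroblasts the shares were 13.3% against 7.61% and 30% against 7.72%. *Eng*, the coreceptor endoglin, was at 69.1 and 66.6 CPM in pericytes against 411 and 234 CPM in endothelial cells (-2.29 ± 0.34, adjusted p = 0.000959). The receptor gene *Tgfbr2* was at 57.2 and 33.3 CPM against 316 and 295 CPM (-2.83 ± 0.27, adjusted p = 6.17e-05). *Bambi*, a decoy receptor, was at 3.95 and 7.93 CPM against 183 and 144 CPM (-4.75 ± 0.44, adjusted p = 5.43e-05). The ligands separated pericytes from the meninges. *Bmp6* and *Bmp7* had 0 UMIs in pericytes, and were at 712 and 342 CPM and at 278 and 217 CPM in meningeal fibroblasts, at least 169.8-fold and 88.8-fold higher there (adjusted p = 0.000243 and 0.000347). *Bmp5* was at 90.8 and 68.2 CPM in pericytes and 218 and 210.2 CPM in meningeal fibroblasts (-1.42 ± 0.22, adjusted p = 0.00198). *Tgfb1* was at 63.1 and 42.8 CPM in pericytes against 2.74 and 2.73 CPM in meningeal fibroblasts (4.22 ± 0.40, adjusted p = 8.95e-05).

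Listed genes of vessel ligands and receptors differed from endothelial cells in both directions. *Angpt1*, the ligand of the endothelial receptor TIE2, was at 162 and 135 CPM in pericytes, 0 and 1.31 CPM in endothelial cells and 42.4 and 36.6 CPM in meningeal fibroblasts. The pericyte values were above all others, 188-fold above endothelial cells with an exact counting interval from 33.2 to 7454 for their 1 UMI (adjusted p = 1.01e-05) and 1.94 ± 0.23 above meningeal fibroblasts (adjusted p = 0.000313). *Tek*, which encodes TIE2, was at 5.92 and 3.17 CPM in pericytes against 452 and 518 CPM in endothelial cells (-6.80 ± 0.48, adjusted p = 1.43e-05). *Aplnr*, the apelin receptor, and its ligand gene *Apln* had 0 UMIs in pericytes and were at least 90.5-fold and 16.9-fold higher in endothelial cells (adjusted p = 0.00225 and 0.00214). *S1pr3*, a receptor for sphingosine 1-phosphate, was at 138 and 93.5 CPM in pericytes against 0 and 1.31 CPM in endothelial cells (145-fold, exact counting interval from 25.6 to 5768, adjusted p = 3.26e-05). *S1pr1*, the endothelial receptor, was at 5.92 and 9.51 CPM against 81.9 and 32.7 CPM (-2.83 ± 0.59, adjusted p = 0.0073), a call lost when either pericyte sum was left out (highest adjusted p = 0.0584). *Cdh2*, N-cadherin, which joins pericytes to endothelial cells, was at 679 and 587 CPM in pericytes against 1253 and 1062 CPM in endothelial cells and 80.8 and 122 CPM in meningeal fibroblasts. It was lower than in the first (-0.92 ± 0.21, adjusted p = 0.0128), a call lost in 2 fits with 1 sum left out (highest adjusted p = 0.0999), and higher than in the second (2.63 ± 0.23, adjusted p = 6.02e-05), and it did not pass against the remaining barcodes (-0.46 ± 0.21, adjusted p = 0.103). Of 17 tested of 19 listed genes, 3 were higher and 9 lower than in endothelial cells (5 to 8 lower with 1 sum left out) and 4 higher and 4 lower than in meningeal fibroblasts (2 to 3 lower).

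Pericytes carried the genes of the vascular basement membrane. Of 19 listed genes 16 were tested, and 15 were higher and 0 lower than in the remaining barcodes, with a median log2 difference of 3.88. *Col4a1* and *Col4a2*, the main chains of collagen IV, were at 2348 and 1717 CPM and at 1310 and 991 CPM in pericytes. In endothelial cells they were at 1066 and 630.1 CPM and at 737 and 437 CPM. The differences of 1.21 ± 0.26 and 0.92 ± 0.26 passed (adjusted p = 0.00936 and 0.0299), but both calls were lost without pericyte replicate 1 and without endothelial replicate 3, with highest adjusted p of 0.0717 and 0.165. *Lamb1*, a laminin chain, was at 365 and 303 CPM against 109 and 87.6 CPM in endothelial cells (1.72 ± 0.19, adjusted p = 0.000169). *Lamc3*, the laminin gamma 3 chain, was at 166 and 144 CPM with 0 UMIs in endothelial cells, at least 65.5-fold higher (adjusted p = 1.96e-05), and did not pass against meningeal fibroblasts (0.64 ± 0.21, adjusted p = 0.0865). *Lama2* was at 126 and 195 CPM against 0 and 2.61 CPM in endothelial cells (105-fold, exact counting interval from 28.7 to 874, adjusted p = 2.65e-05). *Lama1* and *Lama2* were lower than in meningeal fibroblasts (-2.60 ± 0.23 and -1.65 ± 0.24, adjusted p = 5.96e-05 and 0.0012). *Hspg2*, perlecan, was at 43.4 and 28.5 CPM against 197 and 166 CPM in endothelial cells (-2.40 ± 0.35, adjusted p = 0.000854). In all, 7 were higher and 4 lower than in endothelial cells (1 to 3 lower with 1 sum left out) and 5 higher and 3 lower than in meningeal fibroblasts (1 to 2 higher).

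Genes of the fibrillar matrix were often lower in pericytes than in meningeal fibroblasts. The fibroblast genes *Dcn*, *Lum* and *Foxc1* had set these 2 classes, with at most 3 UMIs in the first and at least 8 in the second. Only this limit kept 37 and 83 barcodes out of the pericytes, and its part in the differences was not tested. Of 20 tested of 21 listed genes, 0 were higher and 12 lower than in meningeal fibroblasts, with a median of -2.07, and 12 were higher and 0 lower than in endothelial cells. *Col1a1*, a chain of collagen I, was at 13.8 and 7.93 CPM in pericytes and 665 and 567 CPM in meningeal fibroblasts (-5.83 ± 0.34, adjusted p = 1.99e-05). *Col1a2*, the second chain of that collagen, was at 209 and 157 CPM against 1169 and 999.9 CPM (-2.55 ± 0.24, adjusted p = 7.84e-05). *Col3a1* was at 280.2 and 472 CPM against 1365 and 1175 CPM (-1.73 ± 0.29, adjusted p = 0.00307). *Bgn*, which encodes the proteoglycan biglycan, was at 643 and 648 CPM in pericytes and 385 and 358 CPM in meningeal fibroblasts and did not pass (0.82 ± 0.44, adjusted p = 0.277).

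Integrins and junction genes were partly shared with the endothelium. Of 17 tested of 21 listed genes, 6 were higher and 3 lower than in endothelial cells and 9 higher and 2 lower than in meningeal fibroblasts (5 to 6 and 1 with 1 sum left out). *Itga1*, the alpha subunit of a receptor for collagen and laminin, was at 1109 and 1113 CPM in pericytes, 331 and 234 CPM in endothelial cells and 101 and 74.8 CPM in meningeal fibroblasts. It was higher than in both (1.93 ± 0.22 and 3.70 ± 0.24, adjusted p = 0.00021 and 1.85e-05). *Itga4* was at 211 and 205 CPM in pericytes and 172 and 209 CPM in endothelial cells, which overlapped (0.07 ± 0.18, adjusted p = 0.844), and at 1.37 and 2.18 CPM in meningeal fibroblasts (6.68 ± 0.30, adjusted p = 9.25e-06). The gap junction genes followed 3 patterns. *Gjc1*, a connexin shared with smooth muscle, was at 894 and 715 CPM in pericytes and 95.05 CPM or less in every other sum, higher than in endothelial cells and meningeal fibroblasts by 3.43 ± 0.20 and 3.32 ± 0.19 (adjusted p = 8.57e-06 and 1.45e-05). *Gja4*, a connexin of arterial endothelium, was at 116 and 146 CPM, near the 181 and 94.1 CPM of endothelial cells (-0.08 ± 0.29, adjusted p = 0.894). *Gja1*, the main connexin of fibroblasts and astrocytes, was at 3.95 and 4.76 CPM against 653 and 499 CPM in meningeal fibroblasts (-6.98 ± 0.41, adjusted p = 1.45e-05).

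Beside the channel of the rule, 32 channel and transporter genes were listed and 24 tested, with 9 higher and 9 lower than in endothelial cells and 6 higher and 2 lower than in meningeal fibroblasts. *Kcnj11*, the other pore gene for channels closed by ATP, had 0 UMIs in pericytes. *Abcc8*, its partner, was at 5.92 and 1.59 CPM, below the 29.1 and 25.8 CPM of the remaining barcodes (-2.95 ± 0.55, adjusted p = 0.00174). The cation channel gene *Trpc6* was at 116 and 101 CPM. It was higher than in endothelial cells (5.04 ± 0.58, adjusted p = 0.000207) and meningeal fibroblasts (6.03 ± 0.56, adjusted p = 8.13e-05). *Ano1*, a chloride channel opened by calcium, was at 114 and 151 CPM against 1.95 and 0 CPM in endothelial cells and 0 and 2.18 CPM in meningeal fibroblasts. It was higher than in both (172-fold, exact counting interval from 30.4 to 6833, and 6.36 ± 0.91 on the log2 scale, adjusted p = 0.00205 and 0.00113). *Slc12a2*, the cotransporter NKCC1, was at 389 and 306 CPM and higher than in both (2.64 ± 0.31 and 2.75 ± 0.29, adjusted p = 0.000225 and 0.000177). Transporters of the endothelial barrier itself were lower than in endothelial cells. *Slc2a1*, the glucose transporter GLUT1, was at 17.8 and 12.7 CPM against 1031 and 741 CPM in endothelial cells (-5.92 ± 0.31, adjusted p = 5.77e-06). *Abcb1a*, P-glycoprotein, had 0 UMIs and was at least 86.0-fold higher in endothelial cells (adjusted p = 0.000141). *Abcg2*, a further efflux pump, was at 96.7 CPM in both pericyte sums, below the 382 and 434 CPM of endothelial cells (-2.13 ± 0.17, adjusted p = 2.98e-05) and above the 17.98 and 19.4 CPM of the remaining barcodes (2.34 ± 0.18, adjusted p = 4.72e-06).

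Receptors and enzymes that act on vessel tone were more often higher than lower in pericytes. Of 28 tested of 34 listed genes, 15 (53.6%, against 7.61% of all genes tested) were higher and 2 lower than in meningeal fibroblasts, 14 higher and 4 lower than in endothelial cells (2 to 3 lower with 1 sum left out), and 21 higher and 2 lower than in the remaining barcodes. The medians were 1.74, 2.96 and 4.25. *Ednra*, *Gucy1a1*, *Gucy1b1*, *P2ry14* and *Rgs4* are also counted in the list of other pericyte genes. The lists were chosen with earlier results of these data known, so these shares are a description. *Ednra*, the endothelin A receptor, was at 616 and 455 CPM in pericytes, 0 and 1.31 CPM in endothelial cells and 49.3 and 51.9 CPM in meningeal fibroblasts. Every pericyte value was above every other value, 673-fold above endothelial cells with an exact counting interval from 120.3 to 26623 for their 1 UMI (adjusted p = 5.77e-06) and 3.41 ± 0.23 above meningeal fibroblasts (adjusted p = 1.99e-05). *Ednrb*, the endothelin B receptor, was at 9.87 and 3.17 CPM and passed in none of the comparisons, but was lower than in the remaining barcodes without the cells with a *Sox2* UMI (-4.40, adjusted p = 0.0128). *Gper1*, a receptor for oestrogen, was at 59.2 and 55.5 CPM and higher than in endothelial cells and meningeal fibroblasts, which held 3 UMIs each (24.3-fold, exact counting interval from 7.97 to 121, and 48.8-fold, from 15.97 to 243, adjusted p = 0.000244 and 8.5e-05).

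The cyclic GMP pathway was present from the cyclase to the kinase and the phosphodiesterases. *Gucy1a1* was at 422 and 414 CPM in pericytes against 3.90 and 0 CPM in endothelial cells and 0 and 2.18 CPM in meningeal fibroblasts. *Gucy1b1* was at 377 and 387 CPM against 1.95 and 0 CPM and 8.21 and 14.2 CPM. Both subunits of the nitric oxide receptor thus lay above the other vascular and meningeal classes in each replicate. The ratios to endothelial cells were 267 and 489, with exact counting intervals from 73.5 to 2210 and from 87.2 to 19346 (adjusted p = 0.00056 and 3.49e-05), and the log2 differences from meningeal fibroblasts 8.001 ± 0.94 and 4.97 ± 0.44 (adjusted p = 0.000326 and 5.83e-05). *Prkg1*, the kinase activated by cyclic GMP, was at 2782 and 2189.6 CPM against 189 and 219.6 CPM in endothelial cells and 141 and 170 CPM in meningeal fibroblasts (3.55 ± 0.22 and 4.003 ± 0.22, adjusted p = 8.77e-06 and 1.24e-05). *Mrvi1*, whose protein is a target of that kinase, was at 140.1 and 125 CPM with 0 UMIs in endothelial cells (at least 56.2-fold, adjusted p = 0.000142). *Pde5a*, which breaks down cyclic GMP, was at 381 and 335 CPM against 48.7 and 77.1 CPM and 43.8 and 51.3 CPM (2.42 ± 0.22 and 2.90 ± 0.22, adjusted p = 5.43e-05 and 2.92e-05). *Pde3a*, whose activity on cyclic AMP is inhibited by cyclic GMP, was at 612 and 650 CPM against 1.95 and 1.31 CPM and 37.0 and 29.5 CPM (404-fold, exact counting interval from 112 to 3346, and 4.30 ± 0.25 on the log2 scale, adjusted p = 5.77e-06 and 1.45e-05).

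Transcription factors of mesenchyme were listed as 49 genes and 38 were tested. Of these, 17 were higher and 5 lower than in endothelial cells (3 to 5 lower with 1 sum left out), 8 higher and 7 lower than in meningeal fibroblasts (4 to 8 and 4 to 6), and 23 higher and 3 lower than in the remaining barcodes. *Foxs1*, a forkhead factor known from pericytes, was at 109 and 101 CPM with 0 UMIs in endothelial cells, and *Tbx2*, a T-box factor, was at 134 and 124 CPM with 0 UMIs there. They were at least 44.6-fold and 54.7-fold above endothelial cells (adjusted p = 9.9e-05 and 6.55e-05) and 3.87 ± 0.39 and 4.49 ± 0.39 above meningeal fibroblasts (adjusted p = 0.000246 and 0.000106). *Foxf2*, which brain pericytes are known to need for the barrier, was at 77.0 and 52.3 CPM and in endothelial cells at 111 and 52.3 CPM (-0.36 ± 0.42, adjusted p = 0.619). *Epas1*, which encodes the oxygen-regulated factor HIF-2 alpha, was at 274 and 201 CPM against 316 and 276 CPM in endothelial cells, where it did not pass (-0.37 ± 0.24, adjusted p = 0.331), and 4.11 and 12.01 CPM in meningeal fibroblasts (4.65 ± 0.33, adjusted p = 1.99e-05). *Mef2c* was at 487 and 438 CPM against 8.21 and 12.6 CPM in meningeal fibroblasts (5.39 ± 0.41, adjusted p = 3.11e-05). *Tbx18* and *Foxd1*, known from mural and perivascular mesenchyme, were at 132 and 154 CPM and at 77.0 and 69.8 CPM, at least 61.4-fold and 31.1-fold above endothelial cells (adjusted p = 1.01e-05 and 3.97e-05). *Tbx18* was lower than in meningeal fibroblasts, at 287 and 282 CPM there (-0.97 ± 0.17, adjusted p = 0.00576), and *Foxd1* did not pass (-0.49 ± 0.21, adjusted p = 0.178). *Osr1* and *Bnc2*, factors of meningeal fibroblasts, had 0 UMIs in pericytes and were at least 56.2-fold and 146-fold higher in meningeal fibroblasts (adjusted p = 9e-05 and 1.24e-05). *Foxl2* had 0 UMIs in pericytes and was at least 12.8-fold higher in endothelial cells (adjusted p = 0.00516), a call lost without pericyte replicate 3 (adjusted p = 0.0515). *Myocd*, the main coactivator of smooth muscle genes, had 25.6 and 1.59 CPM and too few UMIs to be tested.

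**Figure D5:**
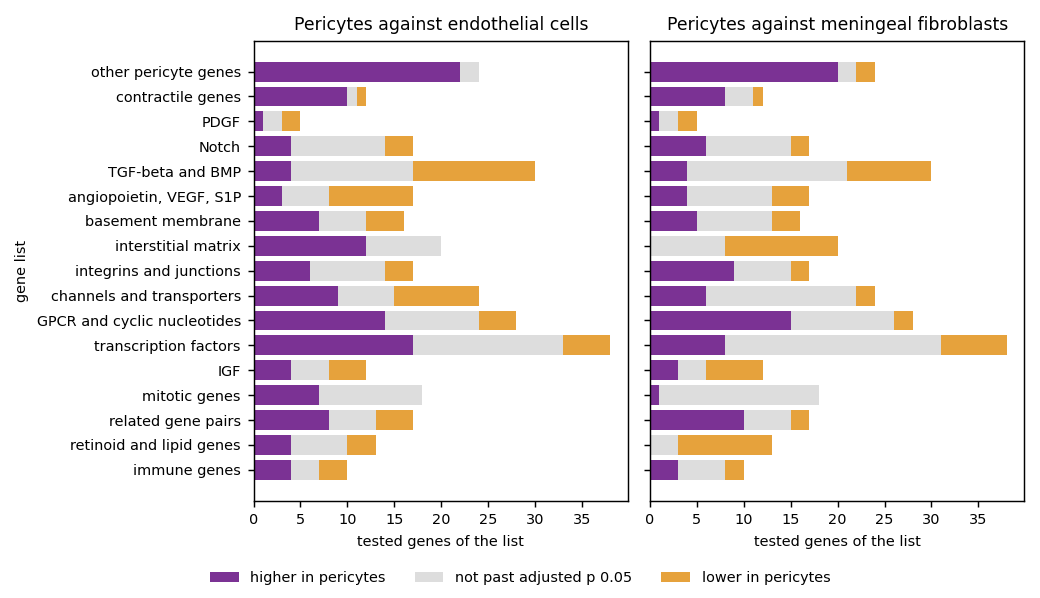
Tested genes of 17 lists, drawn as bars that start at 0, by whether they were higher in pericytes, lower or past no threshold, against endothelial cells on the left and meningeal fibroblasts on the right. The list of other pericyte genes was nearly all higher on both sides (22 and 20 of 24), and interstitial matrix turned from 12 higher and 0 lower on the left to 0 higher and 12 lower on the right.

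Growth factor genes of the insulin-like family moved in both directions. Of 12 tested of 13 listed genes, 4 were higher and 4 lower than in endothelial cells and 3 higher and 6 lower than in meningeal fibroblasts (2 to 5 lower with 1 sum left out). *Igf2*, the growth factor of the embryo, was at 513 and 585 CPM in pericytes, 19.5 and 68.0 CPM in endothelial cells and 687 and 457 CPM in meningeal fibroblasts. It was higher than in endothelial cells (3.52 ± 0.41, adjusted p = 0.000207), and the pericyte values lay between those of the meningeal fibroblasts (-0.03 ± 0.33, adjusted p = 0.973). *Dlk1*, an imprinted gene that encodes a surface protein related to Notch ligands, was at 424 and 362 CPM with 0 UMIs in endothelial cells and 131 and 135 CPM in meningeal fibroblasts. It was at least 165.9-fold above the first and 1.57 ± 0.18 above the second (adjusted p = 5.77e-06 and 0.000465). *Igfbp7*, a binding protein of vessels, was at 1062 and 791 CPM, near the 1197 and 720.3 CPM of endothelial cells (-0.10 ± 0.46, adjusted p = 0.919) and above the 12.3 and 71.0 CPM of meningeal fibroblasts (4.33 ± 0.54, adjusted p = 0.000492). *Igfbp2* was at 168 and 155 CPM against 1496 and 1287 CPM in meningeal fibroblasts (-3.09 ± 0.41, adjusted p = 0.000693).

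Retinoid and lipid genes were often lower in pericytes than in meningeal fibroblasts, classes that were split by the fibroblast genes of the rule. Of 13 tested of 22 listed genes of retinoid and lipid handling, 0 were higher and 10 lower than in meningeal fibroblasts (6 to 9 lower with 1 sum left out), with a median of -4.79. *Aldh1a2*, which makes retinoic acid, was at 5.92 and 1.59 CPM in pericytes against 253 and 133 CPM in meningeal fibroblasts (-5.68 ± 0.58, adjusted p = 0.000258). *Stra6*, the retinol importer, had 0 UMIs in pericytes and was at least 23.4-fold higher in meningeal fibroblasts (adjusted p = 0.000151). *Fabp5*, a fatty acid binding protein, was at 1290.4 and 1251 CPM in pericytes against 29.2 and 37.9 CPM in endothelial cells (5.17 ± 0.22, adjusted p = 5.77e-06), and did not pass against meningeal fibroblasts (0.35 ± 0.17, adjusted p = 0.222). Of 10 tested of 19 listed immune genes, 4 were higher and 3 lower than in endothelial cells and 3 higher and 2 lower than in meningeal fibroblasts. *Il34*, a ligand of the microglial receptor CSF1R, was at 71.0 and 103 CPM in pericytes, 7.80 and 2.61 CPM in endothelial cells and 13.7 and 16.9 CPM in meningeal fibroblasts, and *Csf1*, the other ligand, was at 5.92 and 4.76 CPM. *Il34* was higher than in both classes (4.14 ± 0.52 and 2.49 ± 0.37, adjusted p = 0.00036 and 0.00144), and *Csf1* was lower than in meningeal fibroblasts (-3.19 ± 0.43, adjusted p = 0.000727). *Cxcl12*, the chemokine of the meninges that guides migrating neurons, was at 1.97 and 11.1 CPM against 995 and 927 CPM in meningeal fibroblasts (-7.06 ± 0.38, adjusted p = 1.24e-05).

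Part of the pericytes held UMIs of mitotic genes. In cells thinned to 3000 UMIs, 15 of 41 pericytes of replicate 1 (36.6%, 95% Wilson interval from 23.6 to 51.9) and 25 of 45 of replicate 3 (55.6%, 41.2 to 69.1) had a UMI of the 18 listed mitotic genes, a mean of 46.1% ± 13.4 (SD, n = 2), with 2 and 0 cells too shallow to be thinned. Unthinned the shares were 62.8% and 75.6%. In endothelial cells they were 45.8% and 47.7%, in meningeal fibroblasts 43.5% and 42.0% and in the remaining barcodes 25.4% and 34.3% of thinned cells. Free RNA can give such UMIs too, and its part was not tested. Among the cells rich in mitotic UMIs, 3 of replicate 1, with 55, 98 and 92 of them, also held 4 to 6 UMIs of *Sox2* and 24 to 38 of *Fabp7*, genes of radial glia, and 1 of replicate 3, with 57, held 1 and 30. The cell with the most mitotic UMIs, 285, held 0 of *Sox2* and 4 of *Fabp7*. Without the 5 pericytes that had a *Sox2* UMI, an alternative chosen after seeing the data, 35.1% and 56.8% of thinned pericytes had a mitotic UMI. All 18 genes were tested. Against endothelial cells 7 were higher and 0 lower (2 to 9 with 1 sum left out), against meningeal fibroblasts 1 and 0, and against the remaining barcodes 14 and 0 (2 to 17, the lowest without pericyte replicate 3). Without the cells with a *Sox2* UMI these counts of higher genes were 4, 1 and 9. *Cenpe*, a kinesin of the kinetochore, was at 179.6 and 192 CPM against 81.9 and 84.98 CPM in endothelial cells and 80.8 and 77.5 CPM in meningeal fibroblasts (1.10 ± 0.19 and 1.25 ± 0.18, adjusted p = 0.00221 and 0.00104). *Mki67*, the Ki-67 protein, was at 114 and 155 CPM and did not pass against meningeal fibroblasts (0.54 ± 0.22, adjusted p = 0.137).

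Further genes were those with the largest fold changes among genes past the threshold. They also needed the same direction in both replicates and at least 20 UMIs in each. Their adjusted p was thus under 0.05 by choice in the comparison that named them. The long noncoding RNA *Morrbid* was at 543 and 458 CPM in pericytes, 93.6 and 61.4 CPM in endothelial cells and 1.37 and 1.64 CPM in meningeal fibroblasts. It was higher by 2.67 ± 0.25 and 8.25 ± 0.39 (adjusted p = 5.35e-05 and 9.25e-06). *Carmn*, a long noncoding RNA of cardiac and smooth muscle, was at 105 and 92.0 CPM and 8.91 ± 0.35 above the remaining barcodes (adjusted p = 1.06e-07). *Slc38a11*, an amino acid transporter counted above among the transporters, was at 101 and 103 CPM with 0 UMIs in endothelial cells and 0 and 0.546 CPM in meningeal fibroblasts. It was at least 43.4-fold above the first (adjusted p = 5.13e-05). *Adap2* was at 136 and 117 CPM with 0 UMIs in meningeal fibroblasts (at least 107-fold, adjusted p = 3.78e-05), and *Dock10*, an activator of small GTPases, at 256 and 262 CPM with 0 UMIs in endothelial cells (at least 110.5-fold, adjusted p = 8.66e-05). *Car4*, a membrane carbonic anhydrase, was at 59.2 and 72.9 CPM with 0 UMIs in meningeal fibroblasts (at least 57.05-fold, adjusted p = 0.000105). *Fam162b* was at 122 and 138 CPM and 8.80 ± 0.40 above the remaining barcodes (adjusted p = 5.63e-07). *Cpa1*, *Trpc4* and *Gm13889* completed the genes higher than in meningeal fibroblasts, at 45.4 and 87.2 CPM, 71.0 and 38.1 CPM, and 217 and 197 CPM in pericytes (adjusted p = 0.00263, 0.0016 and 2.18e-05). *Mmp9*, a matrix metalloproteinase, differed most between the replicates among these genes, at 290.0 and 82.4 CPM with 0 UMIs in endothelial cells (at least 74.5-fold, adjusted p = 0.00434).

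The genes with the largest differences in the other direction had 0 UMIs in the pericytes of both replicates. Against endothelial cells these were *Adgrl4*, an adhesion receptor of endothelium, *Slc39a8*, a zinc transporter, *Lcp1*, and the genes *Aplnr* and *Abcb1a* named above. *Adgrl4* was at 591 and 389.6 CPM in endothelial cells and at least 178-fold higher there (adjusted p = 4.31e-05), and *Slc39a8* and *Lcp1* at least 102-fold and 81.3-fold (adjusted p = 4.46e-05 and 3.32e-05). Against meningeal fibroblasts they were *Bmp6*, *Bnc2*, *Ranbp3l*, *Frmpd4* and *Slc6a13*, a transporter of GABA and taurine. *Ranbp3l*, *Frmpd4* and *Slc6a13* were at least 161.5-fold, 140.2-fold and 131-fold higher in meningeal fibroblasts (adjusted p = 1.85e-05, 0.000396 and 1.99e-05). Against the remaining barcodes they were *Sybu*, *Rspo3*, *Gabra2*, *Cntn5* and *Sgcz*, at least 48.2-fold, 47.7-fold, 45.7-fold, 42.2-fold and 29.98-fold higher there (adjusted p = 0.00011, 0.00782, 1.9e-05, 0.0101 and 0.000123). *Rspo3* did not pass without pericyte replicate 3 and *Cntn5* did not pass when either pericyte sum was left out, with highest adjusted p of 0.0649 and 0.078.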

How the data were processed

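UMI counts per gene and barcode were deposited by the authors as 1 matrix for each of 2 libraries, made with Cell Ranger 7.0.0 on mm10 according to the submitters' processing notes. The filters, the rule and the classes were applied to these counts as given in the report, and no doublets were removed. UMIs were summed per class and replicate and fitted across 4 classes with edgeR 4.0.16 (TMM scaling, quasi-likelihood test, prior count 2, genes with low counts left out) in R 4.3.3, after the fit was tested on simulated data. Each SE was derived from the test, as the size of the log2 difference divided by the square root of its F statistic. DESeq2 1.42.0, other scalings, limits and filters and the removal of the highest doublet scores were alternatives. Beyond the list members, the named genes were the 10 highest and 5 lowest fold changes per comparison among genes past the threshold, with the same direction in both replicates and at least 20 UMIs. Some genes are not reported here. Members and lists were chosen with earlier results of these data known. Sums with 1 replicate number come from the same sample, so the numbers pair them. The main fit had no term for this pairing, and the replicate block was an alternative. Across 5427 genes the deviations of pericyte sums correlated with those of endothelial cells, meningeal fibroblasts and the remaining barcodes at 0.0694, 0.139 and 0.300. Whether the samples were separate litters was not given in the sources used here, so the spread may be technical. Intervals and limits from counts of 0 cover counting error only, with a floor of 3 UMIs over both sums.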

Additional observations from a re-analysis of the deposited data

Results flagged for a closer look

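Among the kept barcodes that failed only the limit on fibroblast genes, 6 held at least 8 UMIs of *Rgs5*, *Kcnj8* and *Abcc9* together. They were 4 in replicate 1 and 2 in replicate 3. The limit on fibroblast genes kept these 6 out of the pericytes. By the class rules such barcodes were counted among the meningeal fibroblasts or the remaining barcodes. They were flagged because pericyte markers appear in barcodes that were not counted as pericytes in the reported comparisons. *Foxc1* alone put 4 and 1 of them over the limit. With *Foxc1* left out of the limit, an alternative chosen after seeing the data, 48 and 46 barcodes were pericytes, and 2244, 1656 and 4846 genes passed against endothelial cells, meningeal fibroblasts and the remaining barcodes. The limit was the only one failed by 37 and 83 barcodes.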

How the results depend on the processing

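With 1 sum left out, which takes the lone sum of a class to vary like the other classes, the genes that passed numbered from 1390 to 1651 against endothelial cells, from 870 to 1087 against meningeal fibroblasts, of which 432 to 525 were higher in pericytes, and from 3249 to 4102 against the remaining barcodes. Fewer samples entered these fits. The pericyte share was 0.549% when barcodes with more than 1 UMI of the endothelial genes were left out, and the share of pericytes with a mitotic UMI was 69.2% without thinning. *Tagln* against meningeal fibroblasts turned to -0.81 without the cells rich in *Acta2* and *Tagln*, an alternative chosen after seeing the data. Without the 5 pericytes with a *Sox2* UMI, chosen likewise, *Id4* turned from 2.38 to -1.27 against endothelial cells and from 0.38 to -3.28 against meningeal fibroblasts. With the replicate block, 2160, 1665 and 4889 genes passed in the 3 comparisons, of which 2032, 1528 and 4638 also passed in the main fit. Among the calls of listed and named genes alone, 8 were lost and 19 gained. With no filter on low counts the numbers were 2643, 2117 and 5918, and with DESeq2 2341, 1819 and 4776. Over all settings and named genes 15326 outcomes kept their direction and side of the threshold, 523 fell below it, 279 passed it and 3 reversed.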
